A study of Homo sapiens with 6 samples.

Results

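The genes described here encode the enzymes that add or remove methyl and acetyl groups on histone lysines. Members were the protein-coding genes outside chromosome Y whose symbol begins with KMT, KDM, SETD, EZH or HDAC, or with SIRT or KAT followed by a digit. Of 67 such genes in the annotation, 65 were matched to a counted transcription unit (TU), out of 37339 TUs matched in all, and KMT2C and KMT5A were not analysed here. The 28 writers comprised 20 methyltransferase genes (KMT, SETD, EZH) and 8 acetyltransferase genes (KAT). The 37 erasers comprised 19 demethylase genes (KDM) and 18 deacetylase genes (HDAC, SIRT). The rule reads letters only. It therefore takes in EZHIP, an inhibitor of the Polycomb complex rather than an enzyme, and enzymes whose main known substrates are not histones, such as the actin methyltransferase SETD3 and the tubulin deacetylase HDAC6.

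Nascent and steady-state RNA were measured in untreated K562 cells, an established line from a chronic myelogenous leukemia that carries erythroid features, with 2 PRO-seq and 4 total RNA-seq libraries. PRO-seq sequences the RNA held by engaged RNA polymerases, and total RNA-seq after removal of rRNA measures the RNA that has accumulated. All libraries came from cells of a single flask, so the replicates, and every p-value below, measure technical spread and not variation between cultures.

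Histone modifications are set by opposing enzymes. Methyltransferases and acetyltransferases write a mark, often on a specific lysine such as lysine 4 of histone H3 (H3K4), and demethylases and deacetylases erase it. H3K4 methylation marks active promoters and enhancers, H3K27 methylation by the Polycomb complex PRC2 marks repressed genes, and histone acetylation accompanies active transcription. Many of these enzymes act only inside larger complexes, with partner proteins that activate or recruit them.

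Levels are given in TPM, a unit of transcript abundance that corrects for length and depth, and the ratio of RNA-seq to PRO-seq TPM served as a unit-less relative half-life. It is written as log2, with the median mRNA set to 0, and is given where a TU passed thresholds of 10 TPM for PRO-seq and 1 TPM for RNA-seq. A value of 1 thus means 2 times the RNA per unit of nascent signal of the median mRNA. The ratio is taken over all cells of a library, so that fewer cells with an RNA and less RNA per cell cannot be told apart. It also carries the speed of elongation, which was not measured here. The range quoted after a value spans the 8 ways to pair 1 RNA-seq with 1 PRO-seq library. Calls against the median mRNA come from edgeR's quasi-likelihood test across 10053 TUs with Benjamini-Hochberg adjustment at 0.05.

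The RNA-seq libraries held between 5732780 and 9002746 counts on TUs, and the PRO-seq libraries held 6993816 and 7245632. Members took 0.381% to 0.384% of these counts in RNA-seq and 0.685% in either PRO-seq library. RNA-seq replicates 1 and 3, and replicates 2 and 4, differed by little more than counting noise (chi-square per degree of freedom 1.12 for both pairs, against 1.74 to 2.11 for the other 4 pairs). Over the members, these close pairs gave 1.03 and 0.860. With each close pair summed into 1 library, edgeR again placed 17 members above and 31 below the median mRNA. Of 12 erythroid markers all had RNA-seq counts, led by the globin gene HBG2 at 6287 TPM. Of 6 markers of other cell types, EPCAM stood at 120 TPM in RNA-seq and the other 5 at 0.483 TPM or less.

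Among the 65 members, 53 passed both thresholds. Of these, 17 lay above and 31 below the median mRNA by edgeR, or 32.1% and 58.5%. The background was 45.4% above and 44.9% below among the 8733 protein-coding TUs tested, and 40.0% above and 50.4% below among all TUs. The difference between these shares was not tested. Past a 2-fold difference (edgeR's glmTreat), 7 members lay above and 13 below, against 24.3% and 23.2% of protein-coding TUs and 21.3% and 29.8% of all TUs. In members these shares were 13.2% and 24.5%. The median member had a log2 half-life of -0.44 (-0.55 to -0.39), and its quartiles ran from -1.08 to 0.29, against -1.06 to 1.08 for mRNAs. The calls depend on the reference. With a minimum of 1 summed count per assay in place of the TPM thresholds, the median mRNA moved by -0.63 on the log2 scale, and 31 of 61 members lay above it and 20 below. Of the 31 members called below at the TPM thresholds, 10 then had a positive value, and 5 of these (SIRT5, HDAC5, KDM5C, KDM6A and KDM3A) were called above. The others were SIRT1, SIRT6, SIRT7, KDM2A and SETDB2.

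**Figure D1:**
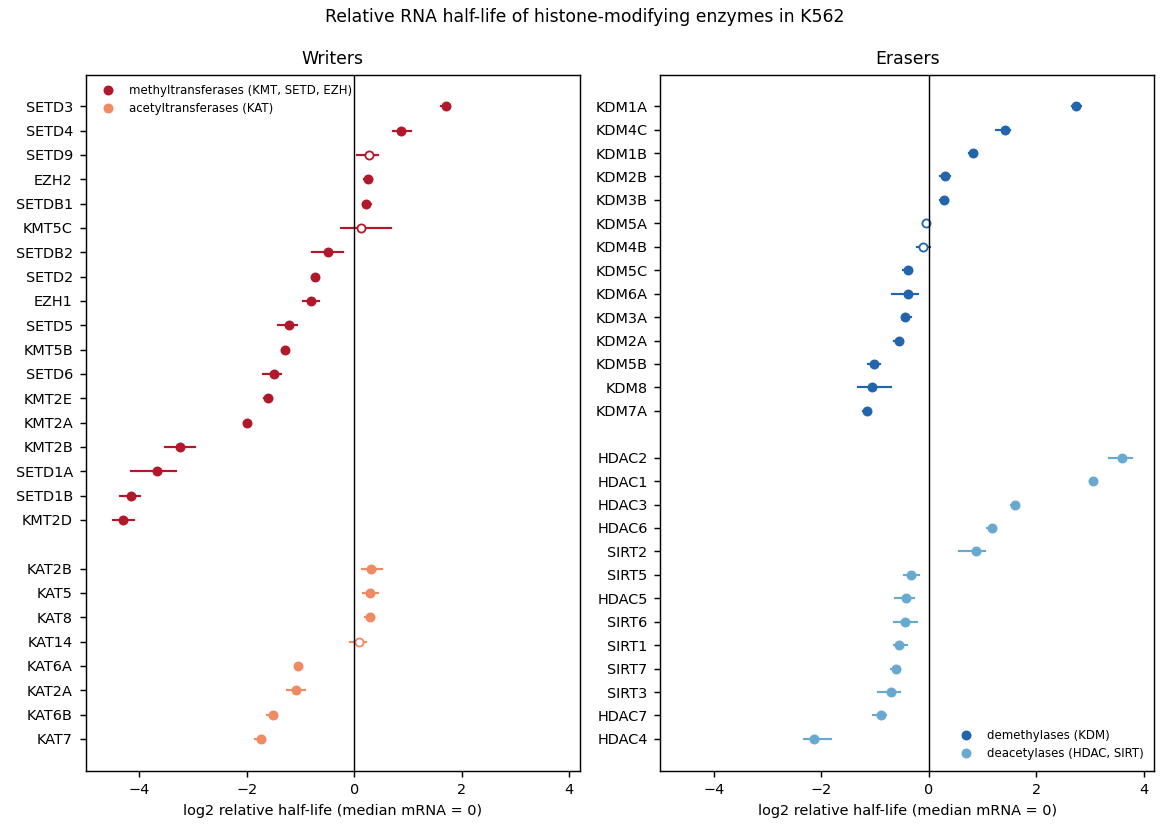
Log2 relative half-life (horizontal axis, median mRNA = 0) of the 53 members with an estimate, writers on the left and erasers on the right, sorted within each enzyme kind. Points are the value from summed counts, bars span the 8 library combinations, and open points did not pass edgeR's test. The values run from -4.30 for KMT2D to 3.59 for HDAC2.

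Writers sat lower than erasers. The median log2 half-life was -0.92 (-1.02 to -0.83) for the 26 writers with an estimate and -0.39 (-0.42 to -0.28) for the 27 erasers, a difference of -0.53. The order of the classes differed between the assays. Writers had the higher nascent level, with a median of 67.1 TPM in PRO-seq against 40.4 TPM for erasers, and the lower RNA level, with 17.9 against 28.8 TPM in RNA-seq. By library, the median log2 TPM of writers minus that of erasers was -0.72, -0.66, -0.70 and -0.66 in RNA-seq replicates 1 to 4, and 0.77 and 0.66 in PRO-seq replicates 1 and 2. The assays did not overlap, with means of -0.68 ± 0.03 (SD, n = 4) and 0.72 ± 0.07 (SD, n = 2). The difference between these means was -1.40, a measure other than the -0.53 between median half-lives. An exact permutation test of it over libraries gave a two-sided p = 0.133. This is the smallest that 4 against 2 libraries allow, so this design cannot reach 0.05. The H3K4 methyltransferases carried much of the difference in median half-life. Without these 5 genes, a set chosen after their values were seen, it was -0.10, with writers at -0.49.

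By enzyme kind, the median log2 half-life was -1.01 for 18 methyltransferases, -0.47 for 8 acetyltransferases, -0.25 for 14 demethylases and -0.43 for 13 deacetylases. Past a 2-fold difference, where 29.8% of all TUs lay below and 21.3% above, 9 methyltransferases lay below (50%) and 1 above (5.56%). Of the acetyltransferases, 2 lay below (25%), and the highest, KAT2B at 0.31, lay within 2-fold. The counts were 1 below (7.14%) and 2 above (14.3%) for demethylases, and 1 below (7.69%) and 4 above (30.8%) for deacetylases.

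The promoters of the members were rich in CG dinucleotides. Of the 53, 35 had a single promoter in the RefSeq table (GRCh38.p14, 250 bases before to 50 after the start), with a median G+C share of 67% and 30 CG dinucleotides, against 66% and 28 for 5203 mRNAs. Writers and erasers hardly differed, at 30 and 30.5 CG dinucleotides. The following 150 bases upstream of the start, 5′ to 3′ on the gene's own strand with each CG in capitals, are shown for 2 of the lowest and 2 of the highest members whose counted transcript holds nearly all of the coding sequence, to set the promoters at both ends of the range side by side. KMT2D lies at chr12:49060795-49060944 (minus strand), SETD1A at chr16:30957604-30957753 (plus), HDAC1 at chr1:32291933-32292082 (plus) and KDM1A at chr1:23019318-23019467 (plus).
KMT2D: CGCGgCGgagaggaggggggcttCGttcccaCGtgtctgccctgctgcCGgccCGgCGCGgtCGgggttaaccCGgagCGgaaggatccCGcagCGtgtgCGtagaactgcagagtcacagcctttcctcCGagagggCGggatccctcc
SETD1A: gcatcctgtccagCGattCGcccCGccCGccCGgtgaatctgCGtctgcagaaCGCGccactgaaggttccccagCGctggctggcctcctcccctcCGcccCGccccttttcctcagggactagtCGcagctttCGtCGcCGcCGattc
HDAC1: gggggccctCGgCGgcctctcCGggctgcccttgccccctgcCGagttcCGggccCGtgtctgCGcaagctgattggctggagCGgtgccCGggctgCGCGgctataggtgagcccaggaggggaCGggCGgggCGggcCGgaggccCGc
KDM1A: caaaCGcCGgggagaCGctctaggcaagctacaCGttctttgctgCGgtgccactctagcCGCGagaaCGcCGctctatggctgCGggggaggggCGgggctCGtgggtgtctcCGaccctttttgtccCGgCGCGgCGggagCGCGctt

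These windows held 17, 16, 16 and 19 CG dinucleotides in that order. Over the 35 members, Spearman's rho between the number of CG dinucleotides in the whole promoter and log2 half-life was -0.05, and -0.03 over mRNAs. Searched on both strands, the letters CCAAT were present in 10 of the 35 promoters (28.6%, against 36.2% of all 22114 promoters in the table and 39.1% of those of mRNAs with an estimate). HDAC1 was among the 10. TATAAA was present in 0 of 35, against 12.7% of all promoters and 4.497% of those of mRNAs with an estimate. CCGGAAG, the core of an ETS site, was present in 8, among them KAT7, KDM4C and SETD4 (22.9%, against 10.7% of all and 25.1% of those of mRNAs with an estimate). A match is a run of letters and says nothing about binding.

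The 4 lowest values among members with an estimate belonged to H3K4 methyltransferases, and the fifth of these enzymes, KMT2A, came sixth from the bottom, after HDAC4. KMT2A (also known as MLL1) and KMT2B act mainly at promoters, KMT2D at enhancers, and SETD1A and SETD1B carry out much of H3K4 trimethylation. All 5 lay below the median mRNA past 2-fold, against 23.2% of protein-coding TUs, and were called below in each of 15 settings of the test. KMT2D (chr12:49412761-49454577, minus strand, GRCh37) had 148 and 155 TPM in the PRO-seq libraries, and 5.56, 4.38, 5.36 and 4.53 TPM in RNA-seq replicates 1 to 4. It thus had the second highest nascent level of all members and one of the lowest RNA levels. Its log2 half-life was -4.30 (-4.50 to -4.10), with an edgeR adjusted p of 5.93e-31, and only 0.916% of mRNAs lay lower.

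SETD1B had 78.0 and 87.1 TPM in PRO-seq and 2.70, 3.04, 2.99 and 3.22 TPM in RNA-seq, for a log2 half-life of -4.16 ± 0.09 (SE, edgeR adjusted p = 2.19e-27). SETD1A, its paralogue, had 89.7 and 109 TPM in PRO-seq and 5.80, 5.33, 4.47 and 3.95 TPM in RNA-seq. Its value was -3.68 ± 0.10 (SE), with a wider range of -4.15 to -3.32. In both genes every PRO-seq library stood more than 10 times above every RNA-seq library. KMT2B followed at -3.25 ± 0.10 (SE) and KMT2A at -2.002 ± 0.057 (SE). KMT2A had 43.1 and 44.9 TPM in PRO-seq against 6.90 to 7.17 TPM in RNA-seq. Another counted TU covered 50.6% of its PRO-seq length on the same strand. With such shared stretches taken out of the lengths, its log2 half-life was -2.62.

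The H3K4 demethylases did not share this position. KDM1A (LSD1), which removes mono- and dimethylation of H3K4 together with the CoREST complex, was the third highest member at 2.75 ± 0.05 (SE, edgeR adjusted p = 5.49e-30). It had 293, 302, 305 and 299 TPM in RNA-seq and 71.9 and 66.9 TPM in PRO-seq. Its relative KDM1B stood at 0.81 ± 0.06 (SE), with 36.8, 35.0, 36.5 and 35.4 TPM in RNA-seq and 31.9 and 31.6 TPM in PRO-seq. The KDM5 enzymes, which act on H3K4 trimethylation, were close to or below the median mRNA. KDM5A was at -0.04 (edgeR adjusted p = 0.388), KDM5C at -0.39 (0.27 with at least 1 summed count in place of the thresholds) and KDM5B at -1.01. KDM5B had 105 and 110 TPM in PRO-seq and 34.0, 32.2, 34.7 and 36.3 TPM in RNA-seq.

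Summed over genes, the 5 H3K4 methyltransferases had 423 and 478 TPM in the PRO-seq libraries and only 23.5 to 26.6 TPM in the RNA-seq libraries. The 5 H3K4 demethylases had 353 and 358 TPM in PRO-seq and 442 to 455 TPM in RNA-seq. The erasers of this mark thus had the smaller nascent sum and the larger RNA sum in every library. KDM1A supplied most of the demethylase RNA. Without it the other 4 had 145 to 150 TPM in RNA-seq and 281 and 291 TPM in PRO-seq, still above the methyltransferases in every RNA-seq library.

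**Figure D2:**
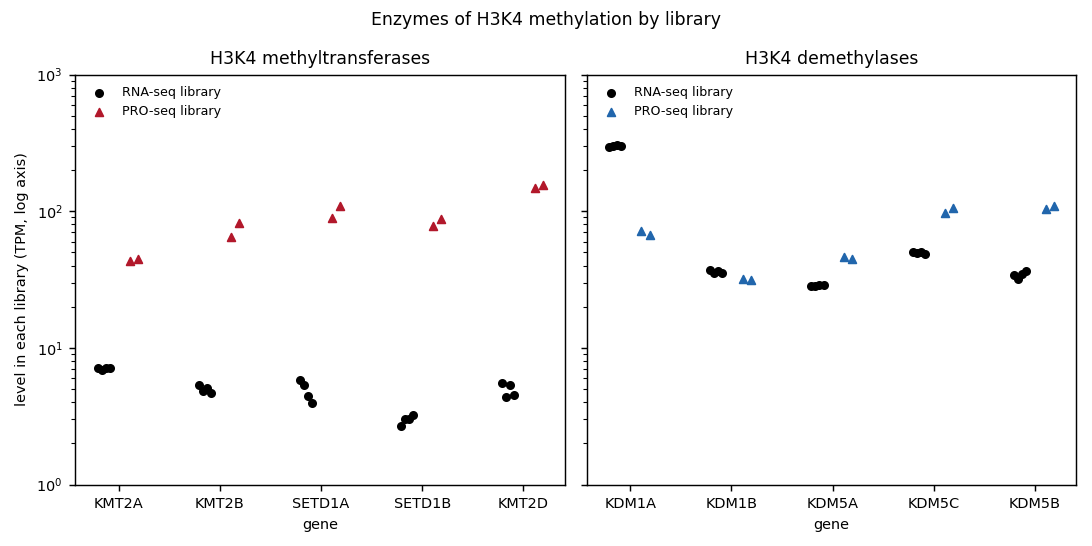
Level in each library (TPM, log axis) of the 5 H3K4 methyltransferases and the 5 H3K4 demethylases, with black circles for the 4 RNA-seq and triangles for the 2 PRO-seq libraries. In every methyltransferase the PRO-seq libraries stand well above the RNA-seq libraries, whereas in KDM1A the 4 RNA-seq libraries (293 to 305 TPM) stand above both PRO-seq libraries.

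The other methyl marks were covered by fewer members. For H3K27, EZH2, the main catalytic subunit of PRC2 in dividing cells, had 144 TPM in either PRO-seq library and 111, 108, 107 and 116 TPM in RNA-seq. It was the third most transcribed member and stood at 0.26 ± 0.04 (SE, edgeR adjusted p = 1.62e-06). EZH1, its alternative subunit, had 38.0 and 39.0 TPM in PRO-seq and 12.7 to 15.9 TPM in RNA-seq, at -0.80 ± 0.08 (SE). On the eraser side, KDM6A was at -0.39 and KDM6B, just under the RNA-seq threshold, had a ratio of -4.58 and no estimate. For H3K9, SETDB1, which silences retroelements, was at 0.22 and SETDB2 at -0.49, and KDM3A, KDM3B, KDM4B and KDM4C ran from -0.44 to 1.42. For H3K36, the trimethylase SETD2 was at -0.73 and the demethylases KDM2A and KDM2B at -0.56 and 0.29. With at least 1 summed count in place of the thresholds, KDM6A, KDM3A, SETDB2 and KDM2A were positive, at 0.26, 0.22, 0.17 and 0.10. In that setting SETD2 and EZH1 were no longer called, at -0.07 and -0.14. SETDB1 did not pass the test of DESeq2 (adjusted p = 0.0607).

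KMT5B and KMT5C both write higher methylation of H4K20. KMT5B had 68.0 and 67.7 TPM in PRO-seq and 17.7, 17.9, 17.5 and 18.2 TPM in RNA-seq, for a log2 half-life of -1.29 ± 0.06 (SE). KMT5C could not be placed. It had 27.2 and 41.4 TPM in PRO-seq, from 130 counts in all, and 28.1, 22.5, 22.3 and 23.4 TPM in RNA-seq. Its log2 half-life of 0.13 ± 0.16 (SE) did not differ detectably from the median mRNA at this depth (edgeR adjusted p = 0.427), and turned to -0.12 without PRO-seq replicate 1.

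The remaining methyltransferase genes lay on both sides of the median mRNA. SETD3 was the highest writer, at 1.70 ± 0.06 (SE, edgeR adjusted p = 7.63e-22), with 65.8, 62.6, 64.6 and 68.0 TPM in RNA-seq and 31.1 TPM in either PRO-seq library. SETD4 had 48.8, 47.6, 53.1 and 47.4 TPM in RNA-seq and 38.9 and 44.4 TPM in PRO-seq, at 0.87 ± 0.08 (SE). Its counted transcript held 68.3% of the longest coding sequence of the gene. Another counted TU shared 25.2% of its PRO-seq length on the same strand. Over 15 settings the value of SETD4 was as low as 0.49, and it was called above in each. SETD9 had 18.5, 15.5, 19.4 and 18.4 TPM in RNA-seq and 21.9 and 23.5 TPM in PRO-seq, and its value of 0.28 ± 0.14 (SE) did not pass the test (edgeR adjusted p = 0.0606). At the other end, SETD5, SETD6 and KMT2E stood at -1.22, -1.49 and -1.60. SETD6 also methylates proteins other than histones, and KMT2E binds methylated H3K4 without known activity on it.

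Of the 8 acetyltransferases, 4 lay below and 3 above the median mRNA by edgeR, and KAT14 was not called at 0.09. These shares of 50% and 37.5% were near the 44.9% below and 45.4% above of protein-coding TUs. Among the MYST enzymes, KAT7 (HBO1), which acetylates H3 and H4, was lowest at -1.74 ± 0.05 (SE, edgeR adjusted p = 7.29e-23). It had 95.4 and 92.2 TPM in PRO-seq and 18.5, 18.5, 17.4 and 17.5 TPM in RNA-seq. KAT6B had 15.7 and 16.3 TPM in PRO-seq and 3.63, 3.65, 3.73 and 3.41 TPM in RNA-seq, at -1.51 ± 0.08 (SE). KAT6A, its paralogue, had a higher nascent level, at 66.3 and 66.5 TPM, with 19.95, 21.5, 20.3 and 21.1 TPM in RNA-seq and a log2 half-life of -1.04 ± 0.05 (SE).

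KAT5 (TIP60), which works in DNA repair and transcription, had 76.1 and 85.5 TPM in PRO-seq and 61.4, 67.8, 65.2 and 61.5 TPM in RNA-seq. Its value was 0.30 ± 0.10 (SE, edgeR adjusted p = 0.00487), and it did not pass without PRO-seq replicate 1 (edgeR adjusted p = 0.0867). KAT8 (MOF), the H4K16 acetyltransferase, was at 0.29 ± 0.07 (SE). The GCN5-type pair lay on either side of the median mRNA. KAT2A (GCN5) had 50.1 and 57.0 TPM in PRO-seq and 15.1, 17.3, 15.4 and 17.0 TPM in RNA-seq, at -1.08 ± 0.13 (SE). KAT2B (PCAF) had 15.7 and 15.2 TPM in PRO-seq and 12.7, 11.3, 14.0 and 11.5 TPM in RNA-seq, at 0.31 ± 0.09 (SE). KAT2B passed the edgeR test (adjusted p = 0.00125) and not that of DESeq2 (adjusted p = 0.0966).

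Among the other demethylases, KDM4C, which acts on H3K9 and H3K36, was the second highest at 1.42 ± 0.06 (SE, edgeR adjusted p = 6.05e-19). It was also one of the least transcribed members with an estimate, with 12.3 TPM in either PRO-seq library, and had 22.4, 21.2, 19.0 and 21.4 TPM in RNA-seq. Another counted TU shared 18.1% of its PRO-seq length on the same strand. The lowest demethylases were KDM7A and KDM8. KDM7A, an H3K9 and H3K27 demethylase, had 30.8 and 31.6 TPM in PRO-seq and 8.59, 8.91, 9.43 and 9.34 TPM in RNA-seq, at -1.15 ± 0.07 (SE). It was the only demethylase below the median mRNA past 2-fold. KDM8, now known as a protein hydroxylase, had 27.4 and 25.3 TPM in PRO-seq and 7.41, 9.92, 7.72 and 7.14 TPM in RNA-seq, at -1.05 ± 0.15 (SE).

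Of the 4 class I deacetylases, the 3 with an estimate lay above the median mRNA past 2-fold, against 24.3% of protein-coding TUs. HDAC8 had no estimate. HDAC1 and HDAC2 are the catalytic core of the SIN3, NuRD and CoREST complexes, and HDAC3 that of the NCOR complexes. HDAC1 (chr1:32757684-32799227, plus strand, GRCh37) had the highest RNA level of all members, with 390, 389, 408 and 395 TPM in RNA-seq against 74.1 and 73.6 TPM in PRO-seq. Its log2 half-life was 3.05 ± 0.05 (SE, range 3.01 to 3.11, edgeR adjusted p = 8.57e-31), or 8.30 times the ratio of the median mRNA, and 96.6% of mRNAs lay lower. HDAC3 had 191, 187, 194 and 184 TPM in RNA-seq and 94.3 and 98.3 TPM in PRO-seq, at 1.61 ± 0.06 (SE). In both genes each RNA-seq library stood above each PRO-seq library. HDAC2 had the highest value of all, at 3.59 ± 0.09 (SE), with 139, 161, 137 and 164 TPM in RNA-seq and 20.5 and 18.5 TPM in PRO-seq. This value rests on a counted transcript of 502 exonic bases that held 20.2% of the longest coding sequence of the gene, so that the level of the full-length mRNA was not measured.

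The class IIa deacetylases shuttle between nucleus and cytoplasm and have weak catalytic activity. Of the 4, the 3 with an estimate lay below the median mRNA by edgeR, against 44.9% of protein-coding TUs. HDAC9 passed neither threshold. HDAC4 was the lowest eraser, at -2.13 ± 0.07 (SE, edgeR adjusted p = 7.50e-22), with 24.2 and 26.5 TPM in PRO-seq and 3.47, 3.69, 4.48 and 3.42 TPM in RNA-seq. HDAC5 had the same nascent level, at 24.9 and 26.4 TPM, and a higher RNA level, at 13.2, 12.1, 12.6 and 10.9 TPM, for a log2 half-life of -0.43 ± 0.09 (SE). HDAC7 had 127 and 136 TPM in PRO-seq and 46.9, 45.6, 45.3 and 42.5 TPM in RNA-seq, at -0.90 ± 0.05 (SE). With at least 1 summed count in place of the thresholds, HDAC5 lay above the median mRNA, at 0.23. The tubulin deacetylase HDAC6 was at 1.18 ± 0.08 (SE), past 2-fold.

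The sirtuins are deacylases that consume NAD. Of 6 with an estimate, 5 lay between -0.71 and -0.33, and SIRT2 was the exception at 0.88 ± 0.11 (SE, edgeR adjusted p = 2.57e-08). SIRT2, mainly cytoplasmic, had 30.5, 29.2, 30.2 and 24.6 TPM in RNA-seq and 25.5 and 23.2 TPM in PRO-seq. SIRT1, a nuclear enzyme, had nearly the same RNA level, at 29.8, 30.4, 32.1 and 34.2 TPM, from a nascent level of 72.1 and 70.8 TPM, at -0.55 ± 0.07 (SE). SIRT7, the nucleolar sirtuin, had the highest nascent level of all members, with 162.5 and 161.8 TPM in PRO-seq, and 66.8, 68.9, 65.3 and 70.1 TPM in RNA-seq. Its value was -0.62 ± 0.09 (SE), on a transcript that held 67% of the longest coding sequence and shared 32.9% of its PRO-seq length with another counted TU. SIRT6, which acts on chromatin, had 65.4 and 61.1 TPM in PRO-seq and 31.4, 27.1, 27.6 and 33.5 TPM in RNA-seq, at -0.44 ± 0.12 (SE). SIRT3, of the mitochondria, had 38.5 and 42.4 TPM in PRO-seq and 15.8, 17.2, 16.2 and 14.1 TPM in RNA-seq, at -0.71 ± 0.10 (SE). SIRT1, SIRT6 and SIRT7 lay above the median mRNA without passing the test when at least 1 summed count replaced the thresholds, at 0.12, 0.22 and 0.04. In that setting SIRT5 was called above, at 0.34, and SIRT3 was no longer called, at -0.05.

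Spearman's rho between nascent and RNA level was 0.373 over the 53 members and 0.551 over the 8733 mRNAs past the same thresholds. It was 0.237 over the 26 writers and 0.611 over the 27 erasers. These are descriptions across genes that share the same libraries. Genes are not independent replicates, and the thresholds cut the range of both levels.

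A further 12 members had no estimate, 10 of them erasers. KDM6B, an H3K27 demethylase, passed in PRO-seq alone, with 29.2 and 38.2 TPM there and 1.03, 0.980, 0.513 and 0.994 TPM in RNA-seq. Its RNA total of 83 counts put it at 0.909 TPM, just under the threshold. Its ratio would be -4.58 (-5.58 to -4.19), lower than that of any member with an estimate. KDM4A, which acts on H3K9 and H3K36, had 17.1, 15.04, 16.3 and 15.6 TPM in RNA-seq and no PRO-seq count. Another counted TU covered 100% of its PRO-seq length on the same strand. Of 2597 TUs covered in this way, 2.35% had a PRO-seq count, against 58.2% of 4631 TUs covered on the other strand alone. The same cover held for 99.9% of the PRO-seq length of HDAC8, which had 5.73 TPM in RNA-seq. For HDAC10, which had 0.846 TPM, it was 94.9%. Nascent levels of KDM4A, HDAC8 and HDAC10 were thus not measured. Their RNA levels are limited too. Exons of another counted TU on the same strand covered 46.5%, 49.7% and 86.4% of their exon lengths, in that order. Of 333 TUs whose exons were wholly covered in this way, 6.91% had an RNA-seq count. SIRT4, HDAC11 and SETD7 passed in RNA-seq alone, with 3.99, 6.32 and 3.74 TPM there and 8.87, 8.36 and 2.72 TPM in PRO-seq. By library, SIRT4 lay on either side of the PRO-seq threshold, at 6.23 and 11.5 TPM. The counted transcript of SETD7 had 492 exonic bases and held 24.2% of the longest coding sequence. KDM4D and HDAC9 were under both thresholds, with 0.972 and 0.466 TPM in RNA-seq, and KDM4E, KDM4F and EZHIP had at most 1 count in either assay. Another counted TU also covered 100% of the PRO-seq length of EZHIP on the same strand, so its nascent level was not measured either.

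Close relatives differed by varying amounts. Of 20 paralogue pairs, 15 had an estimate for both genes, with a median absolute difference in log2 half-life of 0.97. For scale, the SD of log2 half-life was 1.55 over members with an estimate and 1.68 over mRNAs. Whether relatives differ more or less than unrelated genes was not tested. The difference was over 1 in 7 pairs, and had the same sign in all 8 library combinations in 13 pairs. KMT2A minus KMT2B, among the 7 at 1.24, is limited by the 50.6% of the PRO-seq length of KMT2A shared with another counted TU. With such stretches taken out, KMT2A fell to -2.62, and the pair difference was not recomputed. KDM1A exceeded KDM1B by 1.93 (1.82 to 2.03), or 3.82-fold, the largest difference of the 15. HDAC5 exceeded HDAC4 by 1.70 (a difference of -1.70 for HDAC4 minus HDAC5, -1.94 to -1.45), with nascent levels that differed by only -0.01 on the log2 scale. SIRT1 minus SIRT2 was -1.43 (-1.65 to -1.02), KMT5B minus KMT5C -1.43 (-1.99 to -1.04) and KAT2A minus KAT2B -1.39 (-1.78 to -1.06). In these last 3 pairs the gene with the lower ratio was the more transcribed, by 1.55, 0.98 and 1.80 on the log2 scale, while RNA levels differed by 0.13, -0.45 and 0.41.

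**Figure D3:**
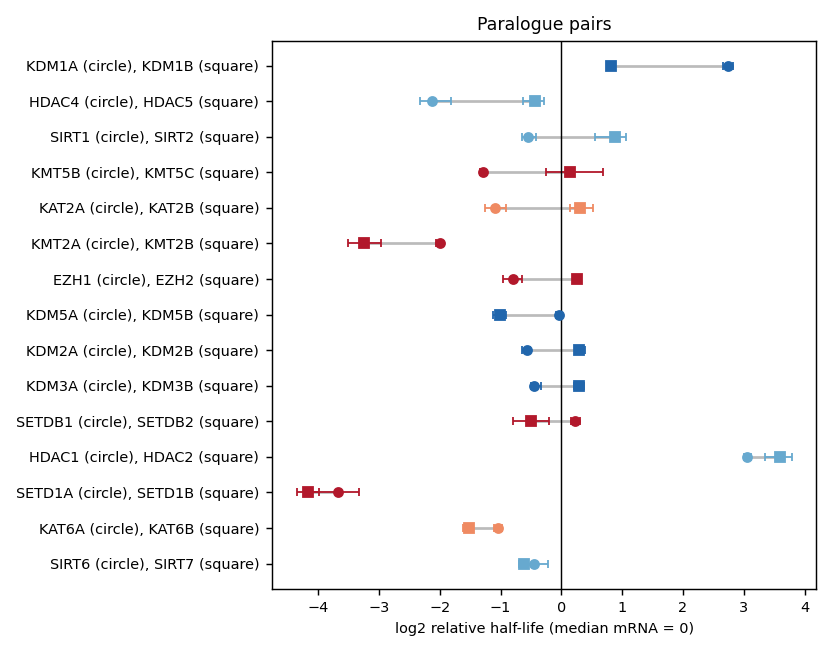
Log2 relative half-life (horizontal axis, median mRNA = 0) of both genes of the 15 paralogue pairs with 2 estimates, sorted by the size of the difference, with bars for the range over 8 library combinations and colours for the enzyme kind. KDM1A and KDM1B differ most, by 1.93, and SIRT6 and SIRT7 least, by 0.17. KMT2A and SIRT7 shared part of their PRO-seq length with another counted TU.

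Other pairs differed by less. SIRT6 and SIRT7 differed by 0.17 (-0.03 to 0.34), but SIRT7 shared 32.9% of its PRO-seq length with another counted TU. Over 15 settings the value of SIRT7 was as low as -0.98 and that of SIRT6 -0.51, and the pair difference was not recomputed. KAT6A and KAT6B differed by 0.47 (0.36 to 0.60), although KAT6A had 2.05 more on the log2 scale in PRO-seq. SETD1A and SETD1B differed by 0.48, with a range of -0.03 to 0.90 that included 0. HDAC1 and HDAC2 differed by -0.54 (-0.73 to -0.28), with the limit on the HDAC2 transcript given above. Between EZH1 and EZH2 the RNA levels differed by -2.96 on the log2 scale and the nascent levels by -1.90, which left a difference in half-life of -1.05 (-1.24 to -0.91).

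The members had longer transcripts than most mRNAs. The counted exon length had a median of 5163 bases in writers and 4538 in erasers, against 3064 in mRNAs. Spearman's rho between exon length and log2 half-life was -0.64 over the 53 members (-0.77 in writers, -0.35 in erasers) and -0.33 over mRNAs. For 3′ UTR length it was -0.51 over members and -0.25 over mRNAs, and for splice junction density 0.64 and 0.37. For the G+C share of the transcript it was -0.10 over members and for intron length 0.03. Exon length is itself the divisor of the RNA-seq TPM, so length and half-life share a term, and these values are descriptions across genes. The 3′ UTR length also depends on the transcript counted. Those of EZH2, KMT2E and SIRT6 are annotated as subject to nonsense-mediated decay, with annotated coding lengths of 1002, 2595 and 129 bases. Those of HDAC2 and SIRT7 have a 3′ UTR of 0 bases.

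Split at 5000 exonic bases, a cut chosen after the values were seen, members with shorter transcripts had a median of 0.26 (29 genes), and mRNAs with shorter transcripts 0.25 (6649 genes). At or over 5000 bases the median was -1.10 for 24 members and -0.58 for 2084 mRNAs. The 13 long writers had a median of -1.60 and all 13 were below the median mRNA by edgeR, whereas the 11 long erasers had -0.39, with 7 below. Of long mRNAs, 64.6% were below. KDM5A, with 10701 exonic bases the longest eraser, was at -0.04, whereas SETD1A, with 5991, was at -3.68.

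Histone enzymes that carry other symbols lay on both sides of the median mRNA. Of 24 such writers, all with an estimate, 12 lay above and 9 below the median mRNA by edgeR (50% and 37.5%, against 45.4% and 44.9% of protein-coding TUs), with a median of 0.06. Their values ran from 3.10 for HAT1, which acetylates newly made H4, to -3.53 for PRDM2, an H3K9 methyltransferase. The PRDM2 value rests on 59 RNA-seq counts (1.61 TPM). The large acetyltransferases EP300 and CREBBP were at -2.19 and -2.83, and the H3K79 methyltransferase DOT1L at -2.27. Arginine methyltransferases PRMT1 and PRMT5 were at 2.86 and 2.04. Of 6 erasers of other symbols with an estimate, 0 lay above by edgeR (also at an unadjusted p under 0.05 and by DESeq2) and 4 lay below (66.7%). They ran from 0.09 for PHF2 to -2.24 for JMJD6, with a median of -0.37. Among the enzymes of other symbols, the writers thus had the higher median.

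The partners of these enzymes lay on both sides too, and their shares stand against the same 45.4% above and 44.9% below of protein-coding TUs. Of 8 COMPASS subunits with an estimate, which assemble with the H3K4 methyltransferases, 4 lay above and 3 below (50% and 37.5%), with a median of 0.18. The core subunits WDR5 and RBBP5 were at 0.47 and 0.43, CXXC1 was highest at 0.83 and NCOA6, a KMT2D partner, lowest at -3.19. Of 8 PRC2 partners, 3 lay above and 4 below (37.5% and 50%), from 2.16 for RBBP7 to -0.52 for SUZ12. Of 15 partners of deacetylases, 6 lay above and 8 below (40% and 53.3%), with a median of -0.81. They ran from 3.54 for SAP30 of the SIN3 complex to -4.00 for GPS2 of the NCOR complex. Both ends rest on few counts near a threshold. SAP30 had 33 PRO-seq counts (11.3 TPM). GPS2 had 19 RNA-seq counts (1.13 TPM) and 41 PRO-seq counts, with a range of -4.88 to -3.42. Of 23 partners of acetyltransferases, 4 lay above and 14 below (17.4% and 60.9%), with a median of -0.81, from 1.05 for MEAF6 to -1.92 for BRPF3.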

How the data were processed

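For each library the authors deposited raw read counts per transcript, without normalization, made with HTSeq (TU spans for PRO-seq, exons for RNA-seq) after Cutadapt trimming and HISAT2 alignment to GRCh38. For these tools, no version was stated in the sources used here. Rows naming no TU held between 66.5% and 88.6% of a library's records and stayed out of totals. The files give no coordinates, so 37339 of 42371 transcripts were joined by identifier to GENCODE on GRCh37, which supplied lengths and the coordinates printed, apart from RefSeq promoters (GRCh38.p14). The labels name the longest transcript and the methods the most abundant, which for some genes is a short isoform. TPM used exon length, or span minus 1000 bp in PRO-seq (500 bp at each end), on summed counts. RNA-seq was tested against PRO-seq with edgeR 4.0.16 (R 4.3.3, TMM, length offsets centred on the median mRNA), and DESeq2 1.42.0 was an alternative. In simulated counts for 10053 TUs, edgeR found 94% of 200 with a true log2 change of 1 and made 6 false calls. The other simulated TUs had no change, and all lengths were equal. In the real data 40.0% of TUs were called above and 50.4% below, so the simulated rates do not describe those calls. Values in every library are given for the 3 highest and 3 lowest log2 half-lives of each enzyme kind (2 and 2 for KAT). They are also given for the 3 highest levels in each assay, the 5 most and 2 least different pairs, and KDM6B and KDM4A. The other members past 1 threshold alone (SIRT4, HDAC8, HDAC11 and SETD7) are given by summed levels. KMT2B, KAT8, EZH1 and the others named with a value fall outside these sets or are the ends of a list. Members, lists and pairs were chosen with earlier results of these data known.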

Additional observations from a re-analysis of the deposited data

How the results depend on the processing

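The alternatives were library totals, DESeq2, a 2-fold test, a replicate block, 500 bp removed for PRO-seq, other minimums, a pseudocount of 1 TPM, the mean of library TPM and each library left out. Further subsets and refits were added after seeing the data: no shared stretches in the lengths, close RNA-seq libraries summed, at least 80% of the coding sequence counted, and no H3K4 methyltransferases. Of 48 called members, 32 kept their call in each setting in which they were tested, out of 15 settings other than the 2-fold test. Calls past 2-fold numbered 2141 TUs above and 2996 below, and 7 and 13 members. At a minimum of 1 summed count per assay, 6671 TUs lay above and 7880 below, and 31 and 20 members. The median mRNA then moved by -0.63 on the log2 scale, and the medians became 0.20 for members, -0.17 for writers and 0.27 for erasers. In that setting 10 members called below turned positive: SIRT5 (0.34), KDM5C (0.27), KDM6A (0.26), HDAC5 (0.23), KDM3A (0.22), SIRT6 (0.22), SETDB2 (0.17), SIRT1 (0.12), KDM2A (0.10) and SIRT7 (0.0414). With at least 10 summed counts the medians were -0.33, -0.68 and -0.28. The median of writers was -1.10 at 20 and 2 TPM, -1.04 for enzymes of histone lysines only, -0.80 without members overlapped by over 10%, -1.04 with at least 80% of the coding sequence counted and -0.49 without the H3K4 methyltransferases. The difference between the medians of writers and erasers, not computed for library totals, DESeq2, the 2-fold test, the replicate block or the summed libraries, was -0.10 to -0.67 in the other alternatives. Without 1 PRO-seq library, KMT5C ranged from -0.12 to 0.4511. With the replicate number as a replicate block, 3929 TUs and 17 members lay above and 4964 TUs and 31 members below. The numbers do not pair the assays, since the difference between replicates 1 and 2 had a correlation of -0.0067 between them over 9962 TUs. Low PRO-seq counts, such as the 130 to 279 of KMT5C, SIRT6, KAT2A and KAT5, limit the precision. In the lists of partners some were lower still, with 33 for SAP30 and 41 for GPS2. Lengths from another build, transcripts that hold part of a gene and shared stretches bound what a ratio between genes can show.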
